A study of Rattus norvegicus with 72 samples.

Results

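The lungs of rats killed 27 days after inhaling diesel exhaust particles (DEP) were compared between the 2 concentrations used, 1000 and 200 ug/m3. The quantity described here is the dose difference: the log2 fold change of 1000 ug/m3 against its air group minus that of 200 ug/m3 against its own air group. A positive value means that a transcript stood higher, relative to air, after the higher concentration than after the lower. The comparison takes all 24 samples whose titles carry day 27, of 72 in the series.

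Each sample was total RNA from a piece of lung of 1 adult male Sprague-Dawley rat, sequenced after removal of ribosomal RNA. The 4 groups of 6 rats were 1000 ug/m3 DEP, its air group (air H), 200 ug/m3 DEP and its air group (air L), named after a letter in the titles that the labels do not explain. All rats were in the inhalation chamber 6 hours a day on 4 days, with filtered air or the particle aerosol, and were killed 27 days later. The labels do not say whether the H and L animals were handled together, so the concentration and whatever else separates these sets cannot be told apart. Nothing in the labels pairs animals.

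Library totals were 3761631 to 6520180 counts in 22 of the 24 libraries. The other 2 belonged to the 1000 ug/m3 group: animal 024 held 439393 counts and animal 045 held 149004, so that 1 count was worth 2.31 CPM (TMM-scaled counts per 1e+06 counts of a library) in 024 and 6.44 CPM in 045. Results are therefore given with and without these 2 libraries. Lung identity was plain in every library: the surfactant gene Sftpc lay between 3664 and 7522 CPM and the type I pneumocyte gene Ager between 1253 and 1912. The macrophage receptor gene Marco had 0 counts in all 24 libraries, and the basal cell keratin Krt5 stayed at or below 0.331 CPM.

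The conducting airways are lined by ciliated cells, which move mucus with motile cilia, and by club cells, which secrete protective proteins. Particles that reach the alveoli are taken up by alveolar macrophages and digested in their lysosomes. Immediate early genes are transcription factors and feedback inhibitors switched on within minutes by growth signals, stretch or tissue handling. B cells and natural killer (NK) cells are lymphocytes present in lung tissue and in its blood.

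Ciliated cell genes and immediate early genes had dose differences of opposite sign, and both groups are known for short promoter elements. RFX transcription factors bind the X-box of cilia genes, while the cAMP response element and the CArG box are known from immediate early promoters. The following sequences are the 250 bases before the start of Dynlrb2 and Ccdc39, from the ciliated list, and of Btg2, from the immediate early list. They come from RefSeq, build GRCr8, at chr19:61428830-61429079 (plus strand), chr2:118631585-118631834 (minus strand) and chr13:48087691-48087940 (minus strand). Capitals mark an X-box (GTTNCCNNG, either strand) or a cAMP response element (TGACGTCA, the same on both strands). The genes shown were chosen because each holds such a match. Among those left out, the same stretch held no X-box in Dnah5 and neither immediate early element in Fosb. In Egr1 it held CArG boxes only.
Dynlrb2: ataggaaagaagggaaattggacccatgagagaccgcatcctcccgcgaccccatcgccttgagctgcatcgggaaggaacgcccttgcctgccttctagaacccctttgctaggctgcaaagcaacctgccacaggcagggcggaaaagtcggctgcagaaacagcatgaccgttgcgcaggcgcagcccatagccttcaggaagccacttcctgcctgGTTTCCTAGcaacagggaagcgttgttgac
Ccdc39: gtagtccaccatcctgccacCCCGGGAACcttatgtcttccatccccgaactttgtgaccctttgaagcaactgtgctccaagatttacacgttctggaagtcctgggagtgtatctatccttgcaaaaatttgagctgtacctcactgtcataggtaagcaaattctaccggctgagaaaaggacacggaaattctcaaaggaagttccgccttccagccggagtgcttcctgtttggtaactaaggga
Btg2: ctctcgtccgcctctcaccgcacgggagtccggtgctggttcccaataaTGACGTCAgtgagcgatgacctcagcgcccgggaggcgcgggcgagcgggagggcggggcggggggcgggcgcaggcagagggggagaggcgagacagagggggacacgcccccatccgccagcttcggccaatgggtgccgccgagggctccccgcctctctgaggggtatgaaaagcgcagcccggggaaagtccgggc

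In windows of 300 bases, the 250 shown and the next 50, the X-box letters occurred in 7 of the 14 ciliated members that had a promoter in the table (50%) and in 17% of all 33465 promoters. The 7 were Ccdc39, Dnah9, Dnai1, Dnai2, Dynlrb2, Sntn and Spag6. Of 11 immediate early promoters, 3 held a cAMP response element (27.3%, against 1.83% of all), those of Btg2, Dusp1 and Ier2, and 3 others held a CArG box (27.3%, against 1.64% of all), those of Egr1, Egr2 and Zfp36. The interferon-stimulated response element, searched on either strand, occurred in 9 of 12 promoters of interferon-induced genes (75%, against 3.92% of all). These matches describe letters in a window and not bound sites.

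Across the genome, no gene passed the test of the dose difference, although the effects of the 2 concentrations leaned in opposite directions. Of 14761 genes tested, 0 had a Benjamini-Hochberg adjusted p below 0.05 (0%) in edgeR's quasi-likelihood test, and the smallest adjusted p was 0.154. At an unadjusted p below 0.05 there were 1961 genes (13.3%), of which 758 were positive (5.14%) and 1203 negative (8.15%). DESeq2 called 34 of the 7320 genes to which it gave an adjusted p (0.464%), 3 of them positive and 31 negative, and limma-voom called 0. Without animals 024 and 045, edgeR called 0 of 14941 genes (smallest adjusted p 0.148), with 1955 at an unadjusted p below 0.05 (13.1%; 5.59% positive and 7.5% negative). DESeq2 then called 31 of 8278 (0.374%), and 23 of its 34 calls were among them. Leaving out 1000 ug/m3 animal 021 alone gave 14 edgeR calls, and leaving out any other single animal gave 0 or 1.

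The 2 effects had opposite signs in 8904 genes (60.3%), split evenly between 4456 that were higher after 1000 and lower after 200 ug/m3 (30.2%) and 4448 with the reverse (30.1%). All 34 genes called by DESeq2 had opposite signs. A test of the difference between 2 effects favours such genes, so this adds nothing to the share over all genes. Over genes, the 2 effects had a Spearman coefficient of -0.243 and a Pearson coefficient of -0.154, and the Spearman coefficient was -0.227 without animals 024 and 045, where 30.4% of genes were higher after 1000 and lower after 200 ug/m3 and 29% the reverse. The 2 effects share no library, but genes are not independent of each other. Neither effect alone passed for any gene: at an unadjusted p below 0.05 there were 1034 genes after 1000 ug/m3 (7%; 3.08% higher and 3.93% lower) and 1430 after 200 ug/m3 (9.69%; 6.04% higher and 3.65% lower). DESeq2 called 6 and 11 genes for these effects. The 95% interval of the dose difference lay within a fold of 2 for 83.2% of the genes.

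**Figure D1:**
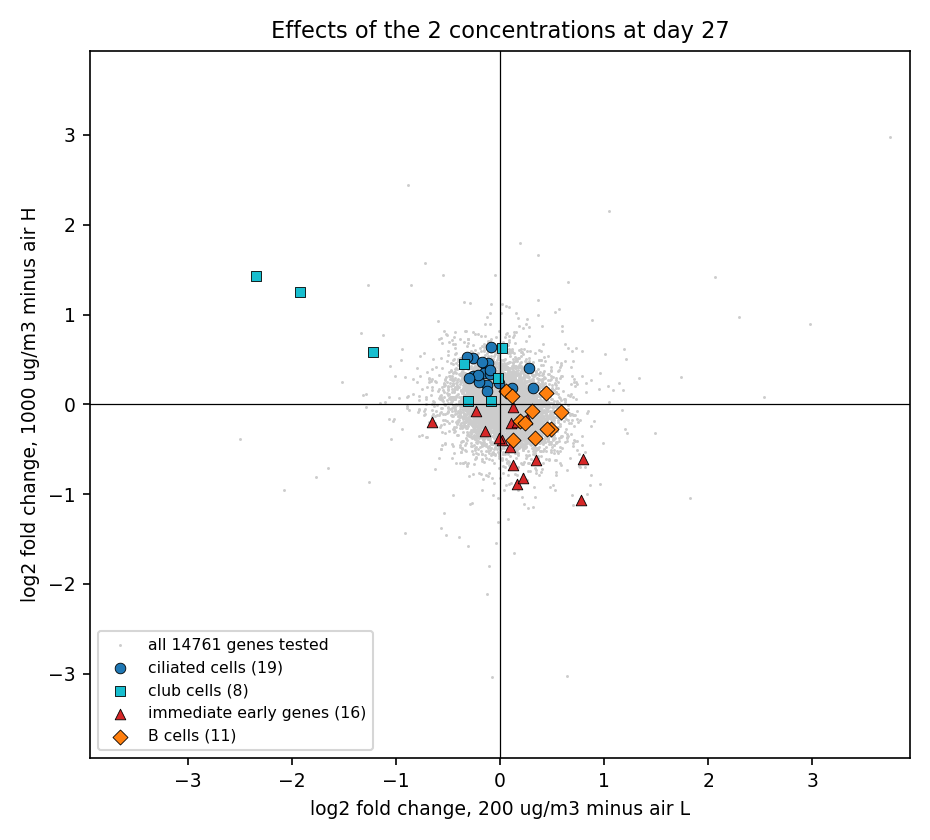
Log2 fold change of 200 ug/m3 against air L (horizontal axis) and of 1000 ug/m3 against air H (vertical axis) for all 14761 genes tested at day 27 (grey), with 4 gene lists in colour. Ciliated (19 genes) and club cell genes (8 genes) lie mostly at the upper left, and immediate early (16 genes) and B cell genes (11 genes) mostly in the lower right.

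Of the 43 gene lists with at least 4 tested members, 15 ran in opposite directions. This was counted where the median effects of the 2 concentrations had opposite signs and at least 75% of the tested members had a dose difference of 1 sign. In 12 of them the median effect was positive after 1000 and negative after 200 ug/m3, and in 3 the reverse. Not all members had these signs at both concentrations. They were found in 5 of 11 alveolar macrophage, 2 of 5 platelet, 7 of 12 NK and 16 of 19 ciliated members. Of all genes, 30.2% had the first pattern and 30.1% the reverse. Without animals 024 and 045, 14 of the 15 lists still ran in opposite directions. The alveolar macrophage list did not, and the endothelial list was added. The count ranged from 13 without 1000 ug/m3 animal 021 to 19 without 200 ug/m3 animal 093. At day 7 the same rule gave 14 of 43 lists. Members and lists were chosen with earlier results of these data known, so these counts only describe. For comparison, the median dose difference of all genes tested was 0.00, with 7446 genes positive (50.4%) and 7315 negative (49.6%). The effect of 1000 ug/m3 was positive in 50.4% of the genes and that of 200 ug/m3 in 50.3%. At an unadjusted p below 0.05, 5.14% of all genes had a positive and 8.15% a negative dose difference. Each list's count at that threshold stands beside these shares.

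**Figure D2:**
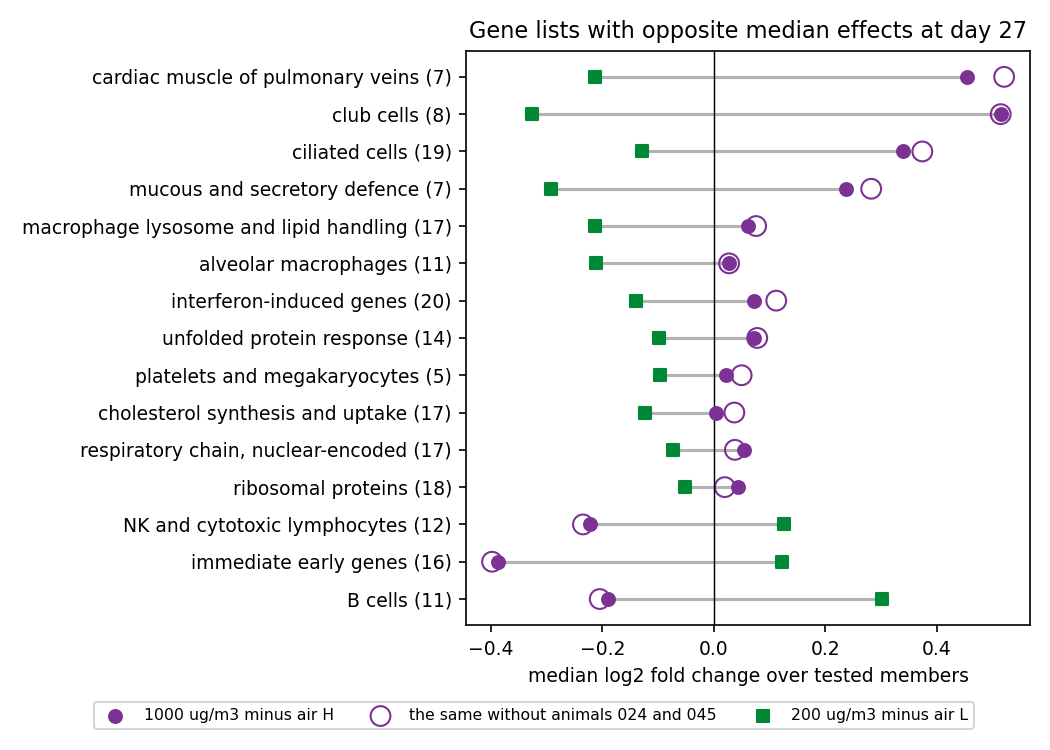
Median log2 fold change over the tested members of the 15 lists with opposite median effects, with the number of members in brackets. Filled circles are 1000 ug/m3 against air H, open circles the same without animals 024 and 045, and squares 200 ug/m3 against air L; the widest gaps belong to club cell (0.52 and -0.33) and cardiac muscle genes (0.45 and -0.21).

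Genes of the airway lining mostly stood higher after 1000 ug/m3 and lower after 200 ug/m3. Among the 19 tested ciliated cell genes, 18 had a positive dose difference, 16 had opposite signs in that order, and the median dose difference was 0.50. At an unadjusted p below 0.05 there were 11 positive members and 0 negative ones. Members ranged from -0.14 for Dnai2 to 0.84 for Dynlrb2, both parts of dynein motors. The median was 0.56 without animals 024 and 045, and 9 members had an unadjusted p below 0.05. In bulk RNA, fewer cells of a type and less RNA per cell cannot be told apart.

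Tppp3, which encodes a tubulin-binding protein of cilia, had the second smallest p of all named genes. Its level was 348 to 454 CPM after 1000 ug/m3 (median 392) and 291 to 352 in air H (median 335). After 200 ug/m3 it was 285 to 424 CPM (median 335), and in air L 385 to 460 (median 423). Of the 1000 ug/m3 libraries all but the lowest, animal 045, lay above every air H library, and the ranges at 200 ug/m3 overlapped. The log2 fold changes were 0.31 (SE 0.08) after 1000 and -0.26 (SE 0.08) after 200 ug/m3, which gave a dose difference of 0.57 (SE 0.12, 95% interval 0.33 to 0.81, adjusted p = 0.154 in edgeR, adjusted p = 0.0183 in DESeq2). It was 0.62 without animals 024 and 045.

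Other ciliary genes also had positive dose differences. Dnah5, the heavy chain of an outer dynein arm, had 25.8 to 36.9 CPM after 1000 ug/m3 and 16.5 to 30.9 in air H, against 23.4 to 32.6 after 200 ug/m3 and 20.9 to 47.5 in air L. Its dose difference was 0.78 (SE 0.22, adjusted p = 0.172). Dynlrb2, a dynein light chain, had 0.84 (SE 0.26) and Ccdc39, needed for the assembly of inner dynein arms, had 0.58 (SE 0.20). Foxj1, the transcription factor of motile cilia, had 0.55 (SE 0.25), from 0.42 after 1000 and -0.13 after 200 ug/m3. The ranges of exposed and air libraries overlapped at both concentrations for Dnah5, Dynlrb2 and Ccdc39.

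All 8 tested club cell genes had a positive dose difference (median 0.70, and 0.74 without animals 024 and 045), 7 had opposite signs, and 5 had an unadjusted p below 0.05. Scgb3a2, a secretoglobin of the small airways, had 107 to 151 CPM after 1000 ug/m3 (median 124), above all 6 air H libraries at 62.2 to 103 (median 98.8). After 200 ug/m3 it had 95.6 to 140 CPM (median 120) and in air L 103 to 262 (median 127), with overlap. The dose difference was 0.80 (SE 0.27, adjusted p = 0.226). Over all genes, 29 had all 6 libraries of the 1000 ug/m3 group above all 6 of air H (0.196%).

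Aldh1a1, a retinal dehydrogenase, also stood above air H in all 6 libraries, at 405 to 499 CPM against 340 to 402. It hardly differed after 200 ug/m3 (-0.02, SE 0.08), and its dose difference was 0.31 (SE 0.11). Retnla, a secreted protein of airway cells and macrophages, had 12.9 to 108 CPM after 1000 ug/m3, 5.41 to 68.2 in air H, 1.83 to 19.3 after 200 ug/m3 and 4.69 to 119 in air L. Its dose difference of 3.18 (SE 0.93) came with ranges that overlapped at both concentrations. Scgb3a1, another secretoglobin, had 3.78 (SE 1.40), while Scgb1a1, the most abundant club cell secretoglobin, had 0.12 (SE 0.21).

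Among genes of mucus and secretory defence, all 7 tested members were positive (median 0.30, and 0.26 without animals 024 and 045) and 4 had opposite signs. An unadjusted p below 0.05 was found for 1 member (5.14% of all genes were positive at that threshold). That member was Agr2, which helps to fold mucins. Its dose difference was 1.42 (SE 0.45, adjusted p = 0.21). Levels of Agr2 were low, from 0 to 8.35 CPM after 1000 ug/m3, 1.99 to 5.82 in air H, 2.94 to 8.79 after 200 ug/m3 and 3.35 to 15.4 in air L. The mucin Muc5b had 1.06 (SE 0.75), and Pigr, which carries antibodies across the epithelium, had 0.22 (SE 0.15).

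Single libraries moved the airway values. Air L animal 081 had the highest relative level of the ciliated list (1.63, where 1 is the mean of the 24 libraries), of the club cell list (3.29) and of the mucus list (2.43). The other air L libraries reached 1.33 for the club cell list. Without animal 081 the median dose difference was 0.38 for ciliated and 0.44 for club cell genes, and Scgb3a2 had 0.56, Agr2 1.01 and Muc5b 0.43. The mucus median was 0.38 without that animal, 0.49 without 1000 ug/m3 animal 021, 0.19 without 200 ug/m3 animal 089 and 0.52 without 200 ug/m3 animal 093. The cardiac muscle list, which marks the muscle sleeve of pulmonary veins in the tissue piece, was also highest of air L in animal 081 (2.54). In the 200 ug/m3 group, animal 093 was highest for the ciliated (1.26), club (0.976), mucus (1.35) and cardiac lists (2.62).

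The 7 tested cardiac muscle genes had a median dose difference of 0.71 (0.78 without animals 024 and 045), with 6 positive and 0 at an unadjusted p below 0.05. Their median effect after 1000 ug/m3 was 0.45, but the median relative level of the list was 0.525 there and 0.527 in air H. It was 0.785 after 200 ug/m3 and 0.844 in air L. The atrial myosin light chain Myl7 varied from 0 to 12.6 CPM after 1000 ug/m3, 0 to 12.9 in air H, 0.392 to 20.2 after 200 ug/m3 and 1.73 to 23.5 in air L. The list median was -0.14 without 1000 ug/m3 animal 046, 1.39 without 200 ug/m3 animal 093 and 0.32 without air L animal 081. Leaving out any of 7 others (air H 017, 019, 041 and 042, 1000 ug/m3 021, air L 083 or 200 ug/m3 091) put it between 0.24 and 1.30. How much cardiac muscle or airway wall a tissue piece held was not recorded in the labels, and its part in the airway values was not tested.

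**Figure D3:**
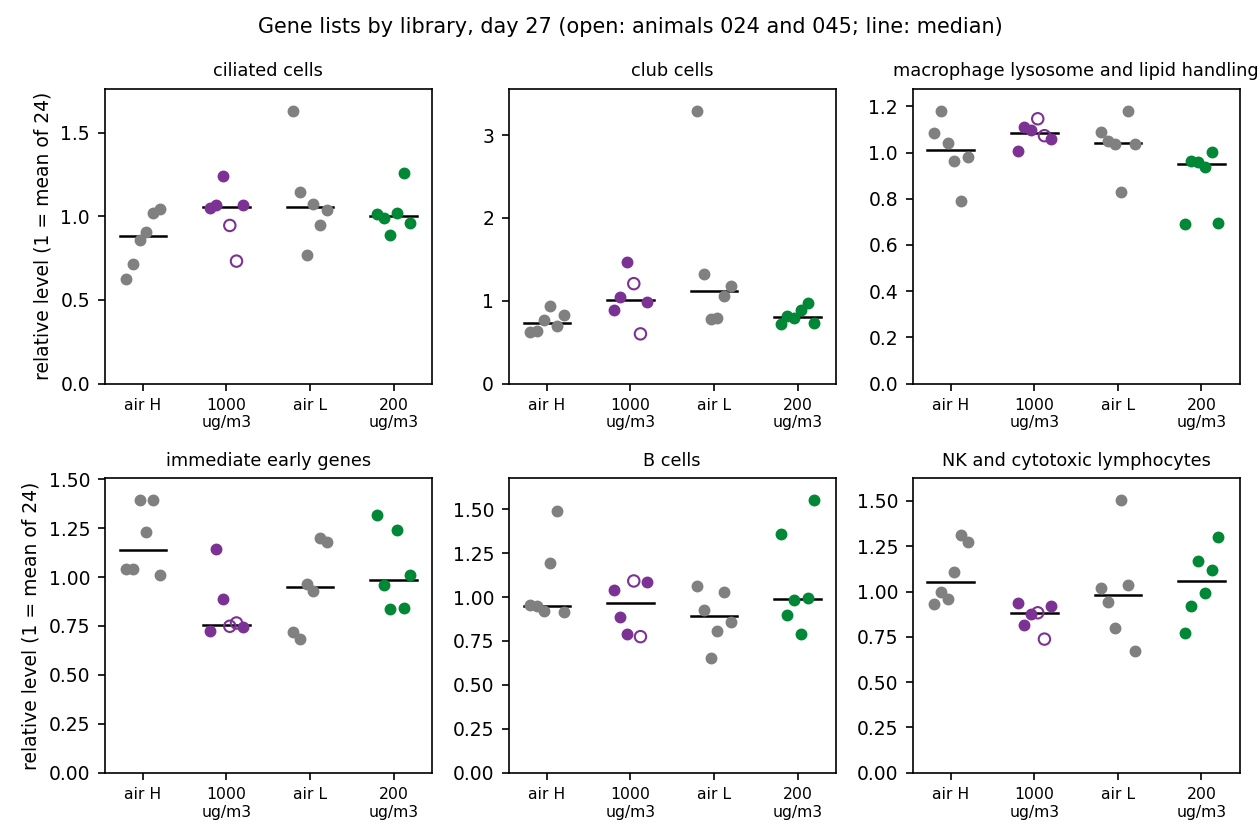
Relative level of 6 gene lists in each of the 24 libraries (1 is the mean of the 24; each value averages the members' CPM divided by each gene's mean), with lines at group medians and open circles for animals 024 and 045. The club cell panel shows air L animal 081 at 3.29, and the immediate early panel shows the 1000 ug/m3 group with a median of 0.757 below air H at 1.14.

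Among macrophage genes, the lysosomal and alveolar lists differed mainly on the side of the lower concentration. Interstitial macrophage and monocyte genes had median effects of 0.01 after 1000 and -0.05 after 200 ug/m3. Of these, 9 of 13 had a positive dose difference, and their list did not meet the rule. The list of lysosomal and lipid-handling genes had 15 of 17 members with a positive dose difference, a median of 0.22 (0.25 without animals 024 and 045) and 5 positive members at an unadjusted p below 0.05. The median effect of the lysosomal list was 0.06 after 1000 and -0.21 after 200 ug/m3, and its median dose difference was 0.17 without 200 ug/m3 animal 089. The relative level of the list was 0.69 to 1.00 after 200 ug/m3 (median 0.95) and 0.83 to 1.18 in air L (median 1.04), with overlap.

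Within that list Fabp5, a fatty acid-binding protein, had 44.3 to 57.9 CPM after 1000 ug/m3, 21.2 to 64.1 in air H, 31.8 to 55.6 after 200 ug/m3 and 42 to 75.4 in air L. Its dose difference was 0.84 (SE 0.28, adjusted p = 0.212). Ctsd, a lysosomal protease, had 250 to 484 CPM after 200 ug/m3 and 376 to 601 in air L, and a dose difference of 0.51 (SE 0.22). Lgals3, a lectin of phagocytes, had 0.60 (SE 0.25), and Ctsb, another lysosomal protease, had 0.22 (SE 0.10). Mmp12, the macrophage elastase, was -0.16 after 1000 and -1.06 after 200 ug/m3.

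Alveolar macrophage genes were positive in 10 of 11 cases with a median of 0.19, but 5 of 11 had opposite signs. The membrane protein Cd9 had 0.37 (SE 0.12, adjusted p = 0.212) and was the 1 member with an unadjusted p below 0.05 (5.14% of all genes were positive at that threshold). The mannose receptor Mrc1 had 0.33 (SE 0.32; 0.18 without 200 ug/m3 animal 094). Without animals 024 and 045 the median was 0.16 with 8 of 11 positive, below the share required. Single animals of the 200 ug/m3 group moved it further, to 0.09 without 094, 0.10 without 089 and 0.42 without 092. The lowest relative level of this list after 200 ug/m3 was 0.551, in animal 089, which was also lowest for the lysosomal list (0.69).

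Immediate early genes were lower after 1000 ug/m3 in 16 of 16 tested members and higher after 200 ug/m3 in 12 of 16. The median dose difference was -0.42, with 14 negative members, and 7 negative members had an unadjusted p below 0.05. Without animals 024 and 045 the median was -0.43 and the 2 counts were again 14 and 7. The relative level of the list was 0.725 to 1.14 after 1000 ug/m3 (median 0.757) and 1.01 to 1.39 in air H (median 1.14). Of the 1000 ug/m3 libraries only animal 022, at 1.14, reached the range of air H.

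Fos, a subunit of the AP-1 transcription factor, had 6.44 to 36.8 CPM after 1000 ug/m3 (median 22.7) and 29.5 to 60.5 in air H (median 50.8). After 200 ug/m3 it had 28.4 to 83.4 CPM (median 46) and in air L 24.2 to 59.2 (median 43.2). Most of the difference lay on the side of the higher concentration, with effects of -0.89 (SE 0.30) and 0.16 (SE 0.27) and a dose difference of -1.05 (SE 0.41, adjusted p = 0.282). Its partner Fosb had effects of -1.07 (SE 0.44) and 0.78 (SE 0.40) and a dose difference of -1.84 (SE 0.60, adjusted p = 0.212). Fosb was low, with medians of 5.47 CPM after 1000 ug/m3, 10.9 in air H, 9.95 after 200 ug/m3 and 5.58 in air L. Its highest value, 25.8 CPM in animal 045, rested on 4 counts.

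The growth-response factor Egr1 had -0.61 (SE 0.37) after 1000 and 0.80 (SE 0.37) after 200 ug/m3. Its dose difference was -1.41 (SE 0.53; -0.93 without 200 ug/m3 animal 089), and the medians were 6.91, 13.3, 8.87 and 6.63 CPM in the 1000 ug/m3, air H, 200 ug/m3 and air L groups. Btg2, an inhibitor of proliferation, was well expressed (119 to 228 CPM over all groups) and had -0.42 (SE 0.16). Dusp1, a phosphatase that ends MAP kinase signals, had -0.80 (SE 0.36), the nuclear receptor Nr4a1 had -1.04 (SE 0.45), and Zfp36, which destabilises inflammatory mRNAs, had -0.97 (SE 0.42). The stress factor Atf3 went the other way at 0.45 (SE 0.32).

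Lymphocyte genes also had negative dose differences. B cell genes were negative in 10 of 11 cases (median -0.44, and -0.48 without animals 024 and 045), and 8 had opposite signs. At an unadjusted p below 0.05 there were 2 (1 without those animals), where 8.15% of all genes were negative. All 11 were higher after 200 ug/m3 than in air L. The median was -0.29 without 1000 ug/m3 animal 023. Ebf1, a transcription factor of early B cells that stromal cells also use, had 6.44 to 28.8 CPM after 1000 ug/m3, 25 to 36.1 in air H, 19.7 to 32.3 after 200 ug/m3 and 14 to 21.4 in air L. Its dose difference was -0.73 (SE 0.18, adjusted p = 0.154). Cd79b, part of the B cell receptor, had -0.72 (SE 0.34). The relative level of the B cell list overlapped between all groups, at 0.775 to 1.09 after 1000 ug/m3, 0.914 to 1.49 in air H, 0.788 to 1.55 after 200 ug/m3 and 0.655 to 1.06 in air L.

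NK and cytotoxic genes were negative in 11 of 12 cases (median -0.25 with and without animals 024 and 045), with 7 of opposite sign. An unadjusted p below 0.05 was found for 2 (8.15% of all genes were negative at that threshold). The chemokine gene Ccl5 had 18.5 to 24.7 CPM after 1000 ug/m3, below all 6 air H libraries at 25.3 to 34.9, and 20.2 to 32.7 after 200 ug/m3 against 16.5 to 30.1 in air L. Its dose difference was -0.58 (SE 0.18, adjusted p = 0.2). Over all genes, 53 had all 6 libraries of the 1000 ug/m3 group below all 6 of air H (0.359%). Eomes, a transcription factor of NK and cytotoxic T cells, had -1.08 (SE 0.33), and the pore protein Prf1 had -0.42 (SE 0.26). The lowest and highest list medians on leaving out 1 animal were -0.44 (without air L 085) and -0.16 (without air L 087). T cell genes did not meet the rule, with 8 of 12 negative and a median of -0.17.

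The remaining lists that ran in opposite directions had small medians. Median effects after 1000 and 200 ug/m3 were 0.07 and -0.14 for interferon-induced genes. They were 0.07 and -0.10 for unfolded protein response and 0.05 and -0.07 for respiratory chain genes. The median relative level after 1000 ug/m3 was below air H for interferon-induced genes (0.99 against 1.03). It was above for unfolded protein response (0.96 against 0.95) and respiratory chain genes (1.02 against 0.96). Interferon-induced genes were positive in 17 of 20 cases (median 0.15, and 0.17 without animals 024 and 045). Near the share of all genes (5.14% positive), 1 of the 20 had an unadjusted p below 0.05. This was Mx2, an antiviral GTPase, at 0.58 (SE 0.26). The median was 0.09 without air H animal 020, 0.23 without air H animal 018 or 019 and 0.24 without 200 ug/m3 animal 090. Genes of the unfolded protein response were positive in 13 of 14 (median 0.14, and 0.17 without those animals), led by the secreted survival factor Manf at 0.33 (SE 0.13). Nuclear-encoded respiratory chain genes were positive in 14 of 17 (median 0.12, and 0.14 without them), with 5 at an unadjusted p below 0.05 and 2 without those animals. Sdha, the catalytic subunit of complex II, had 190 to 217 CPM after 1000 ug/m3, above air H at 165 to 185, and a dose difference of 0.21 (SE 0.07).

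Cholesterol genes were positive in 13 of 17 (median 0.12, but 0.04 without 1000 ug/m3 animal 022 and 0.07 without 200 ug/m3 animal 090). Srebf2, the transcription factor that controls them, had -0.17 (SE 0.10). The sterol response element (TCACNCCAC, either strand) was found in 0 of 11 of their promoters and in 1.12% of all. Ribosomal protein genes were positive in 16 of 18 (median 0.09, but 0.04 without 200 ug/m3 animal 089 or 1000 ug/m3 animal 046 and 0.14 without 200 ug/m3 animal 091). The exceptions were Rps16 at -1.03 (SE 0.61) and Rpl8 at -1.70 (SE 1.17). Near-identical copies of ribosomal protein genes may share reads, so these values are uncertain. Platelet genes were positive in 4 of 5 (median 0.12), and their named members had intervals that included 0. Their median moved with many single animals, from 0.02 without air H 041 to 0.29 without 1000 ug/m3 022. Median effects after 1000 and 200 ug/m3 were 0.005 and -0.12 for cholesterol, 0.04 and -0.05 for ribosomal and 0.02 and -0.10 for platelet genes. The median relative level after 1000 ug/m3 was below air H for cholesterol (0.95 against 1.00) and ribosomal genes (0.97 against 0.98). For platelet genes it was above (1.10 against 1.03).

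Among all genes of opposite sign, the 10 with the smallest p in each direction were named, 20 in all, with adjusted p between 0.154 and 0.171, and DESeq2 called 11 of them. Among the positive ones, Mal2, a membrane trafficking protein of polarised epithelium, had 365 to 410 CPM after 1000 ug/m3, above all 6 air H libraries at 278 to 339. After 200 ug/m3 it had 231 to 366 CPM and in air L 348 to 385. The dose difference was 0.51 (SE 0.11, 95% interval 0.29 to 0.73) with and without animals 024 and 045. Hopx, a marker of type I pneumocytes, had 328 to 401 CPM after 1000 ug/m3, 325 to 352 in air H, 260 to 358 after 200 ug/m3 and 353 to 420 in air L. Its dose difference was 0.38 (SE 0.09), while the type I pneumocyte list as a whole had a median of 0.00 over 11 genes.

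The other positive genes had dose differences of 0.44 to 1.03. They were the endosomal protein gene Nsg1 (1.03, SE 0.26), the kinase regulator Mob2 (0.44, SE 0.11), the adaptor Shc2 (0.99, SE 0.25), the glucose transporter Slc2a1 (0.57, SE 0.15), Car8 (0.56, SE 0.15), the ciliary transport gene Hspb11 (0.83, SE 0.22) and Tcp1-ps1 (0.70, SE 0.18). The last is annotated as a pseudogene by its symbol and may share reads with its parent gene. All had overlapping ranges of exposed and air libraries at both concentrations.

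Among the negative ones, Zfp503, a zinc finger repressor, had the smallest p of all named genes. It had 27.4 to 45.1 CPM after 1000 ug/m3 (median 39.6), 39.7 to 59.9 in air H (median 50.7), 23.7 to 42.3 after 200 ug/m3 (median 33.7) and 22.9 to 31.7 in air L (median 25.8). The exposed groups lay near each other between a high air H and a low air L. The dose difference was -0.85 (SE 0.17, 95% interval -1.19 to -0.50, adjusted p = 0.154 in edgeR, adjusted p = 0.0222 in DESeq2), and -0.87 without animals 024 and 045.

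Zfp36l1, which promotes mRNA decay, had 98.8 to 155 CPM after 1000 ug/m3 (median 110), below all 6 air H libraries at 158 to 198 (median 172). After 200 ug/m3 it had 96.4 to 171 CPM (median 136) and in air L 86.6 to 128 (median 107). Its dose difference was -0.81 (SE 0.18, adjusted p = 0.154 in edgeR, adjusted p = 0.0183 in DESeq2), and -0.79 without animals 024 and 045. The cell adhesion gene Pvrl1 was also below air H in all 6 libraries, at 19.3 to 39.9 against 44.7 to 52.9 CPM, with -0.69 (SE 0.16). Il2rb, a receptor chain for interleukins that lymphocytes respond to, had -0.86 (SE 0.20). The actin regulator Wasf2 had -0.60 (SE 0.13), the kinase Mark2 -0.53 (SE 0.12), the transcription factor Foxj2 -0.57 (SE 0.12) and the glycosyltransferase Mgat4b -0.65 (SE 0.15). M6pr (-1.29, SE 0.29) and the calcium channel Cacna1a (-1.47, SE 0.34) were lower, and animal 045 had 0 counts of both.

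**Figure D4:**
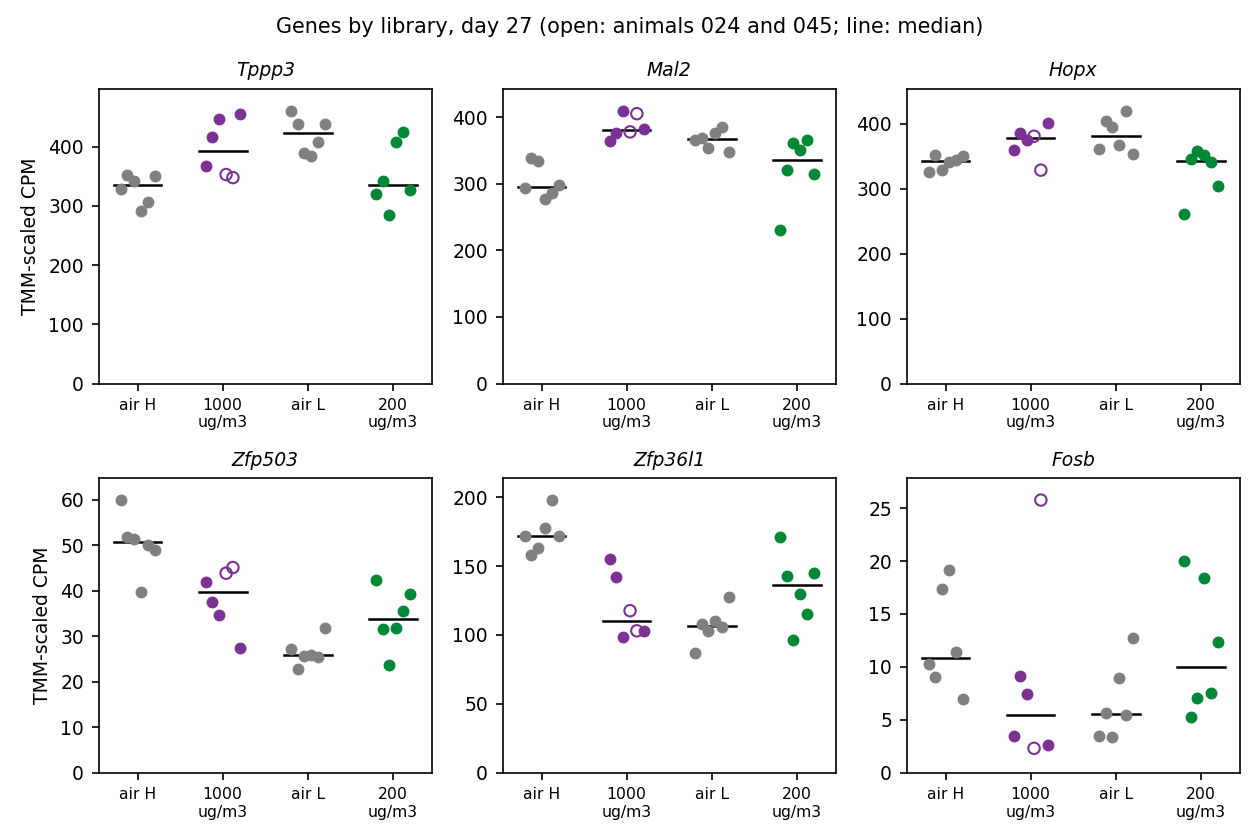
TMM-scaled CPM of 6 genes in each of the 24 libraries at day 27, with lines at group medians and open circles for animals 024 and 045. For Mal2 all 6 libraries of the 1000 ug/m3 group (365 to 410) lie above air H (278 to 339), and for Zfp36l1 all 6 (98.8 to 155) lie below air H (158 to 198).

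Over all genes, 82 had ranges of the 1000 ug/m3 and air H libraries that did not overlap (0.556%), and 50 had ranges of the 200 ug/m3 and air L libraries that did not (0.339%). No gene had separate ranges in opposite directions at both concentrations (0%).

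The dose difference is also the difference between the exposed groups minus the difference between the air groups, and more genes passed the test between the air groups. Between air H and air L, 2071 of 14761 genes passed edgeR's test (14%), 1317 higher in air H (8.92%) and 754 lower (5.11%). Between the 1000 and 200 ug/m3 groups 0 passed (0%), with 1086 at an unadjusted p below 0.05 (7.36%; 4.02% higher and 3.34% lower after 1000 ug/m3), and DESeq2 called 2. Without animals 024 and 045, edgeR called 1 gene between the exposed groups and DESeq2 called 21. These comparisons share libraries with the dose difference, so their values are only set side by side.

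For the ciliated list the median was -0.35 for air H minus air L and 0.12 for 1000 minus 200 ug/m3. For the club cell list these values were -0.63 and 0.13, for the mucus list -0.28 and 0.18, and for the cardiac list -0.92 and -0.21. Immediate early genes had 0.19 and -0.21, and B cell genes 0.26 and -0.18. In the lysosomal list the exposed groups differed more than the air groups, with -0.05 for air and 0.27 for exposed, and the NK list had 0.09 and -0.26. Unfolded protein response genes had -0.22 and -0.03, and 7 of 14 passed as lower in air H (5.11% of all genes). Ribosomal genes had -0.16 and -0.04, respiratory chain genes -0.16 and 0.02, and cholesterol genes -0.09 and 0.03. The values were -0.11 and 0.10 for interferon-induced, 0.00 and 0.22 for alveolar macrophage and 0.17 and 0.31 for platelet genes. Zfp503 had 0.93 (SE 0.11) between the air groups and 0.08 between the exposed groups, Zfp36l1 0.69 (SE 0.12) and -0.11, Tppp3 -0.35 (SE 0.08) and 0.22, and Mal2 -0.26 (SE 0.07) and 0.25.

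When the 12 air libraries were pooled as 1 control, the dose difference became the contrast of the exposed groups. It then had 854 genes at an unadjusted p below 0.05 and 0 past the threshold, and the list medians were 0.12 for ciliated genes and 0.13 for club cell genes. The value for Zfp503 turned to 0.08 and that for Ebf1 to 0.04. Whether the air groups differ through handling, animals or sequencing was not tested.

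The same quantity was computed at the earlier days. Opposite signs were found in 49.3% of 12304 genes at day 1 and in 52.5% of 14331 at day 7, and the Spearman coefficient of the 2 effects over genes was 0.02 and -0.06. At an unadjusted p below 0.05 there were 537 genes at day 1 (4.36%) and 747 at day 7 (5.21%). Lists ran in opposite directions in 8 of 41 cases at day 1 and 14 of 43 at day 7. Day 1 libraries held 1042340 to 2397970 counts (median 1436645), against medians of 4045340 at day 7 and 5041925 at day 27. At day 7, animal 037 of the 1000 ug/m3 group held only 105453 counts. Without it the share of opposite signs at day 7 was 52.5%, the Spearman coefficient -0.06, the genes at an unadjusted p below 0.05 were 798 of 14446 (5.52%), and 17 lists ran in opposite directions. In a fit of all 72 libraries, the change of the dose difference between days passed the threshold for 0 genes in edgeR. In that fit 968 of 14956 (6.47%) had an unadjusted p below 0.05 for day 27 against day 7 (985 of 15061 without animal 037, again with 0 past the threshold), and 1484 (9.92%) for day 27 against day 1.

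Ciliated genes leaned the same way at day 7, with 18 of 19 positive and a median of 0.42, and not at day 1, with 5 of 18 positive and -0.18. The club cell list had 7 of 7 positive at day 7 (median 0.37) and 1 of 7 at day 1 (-0.06). Without animal 037 the day 7 medians were 0.43 (19 of 19 positive) for ciliated and 0.41 for club cell genes. Tppp3 itself had 0.04 (SE 0.14) at day 7 and 0.01 (SE 0.23) at day 1. B cell genes had the other sign at day 7, with 11 of 11 positive (median 0.32, and 0.34 with 10 of 11 positive without animal 037); for Cd79b the dose difference at day 27 minus that at day 7 was -1.55 (SE 0.45, adjusted p = 0.404).

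Interferon-induced genes had larger values earlier, with medians of 0.58 at day 1 (20 of 20 positive) and 0.43 at day 7 (18 of 20 positive). At day 1 the list median was -0.48 for air H minus air L and 0.06 for 1000 minus 200 ug/m3. At day 7 these values were -0.14 and 0.39. Immediate early genes had medians of 0.14 and -0.08 at days 1 and 7. Unfolded protein response genes had the other sign earlier, with 13 of 14 negative at day 1 (median -0.25) and 12 of 14 at day 7 (-0.07). Manf had -0.43 (SE 0.17) at day 1. Cholesterol genes were negative in 10 of 16 cases at day 1 (median -0.10) and 14 of 17 at day 7 (-0.06). Fabp5 had -0.02 (SE 0.30) at day 1 and -0.61 (SE 0.27) at day 7. Zfp36l1 had 0.19 (SE 0.13) at day 1 and 0.04 (SE 0.13) at day 7, and its dose difference at day 27 minus that at day 1 was -0.99 (SE 0.22, adjusted p = 0.0823). The same quantity was 0.71 (SE 0.16, adjusted p = 0.0823) for Mal2.

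**Figure D5:**
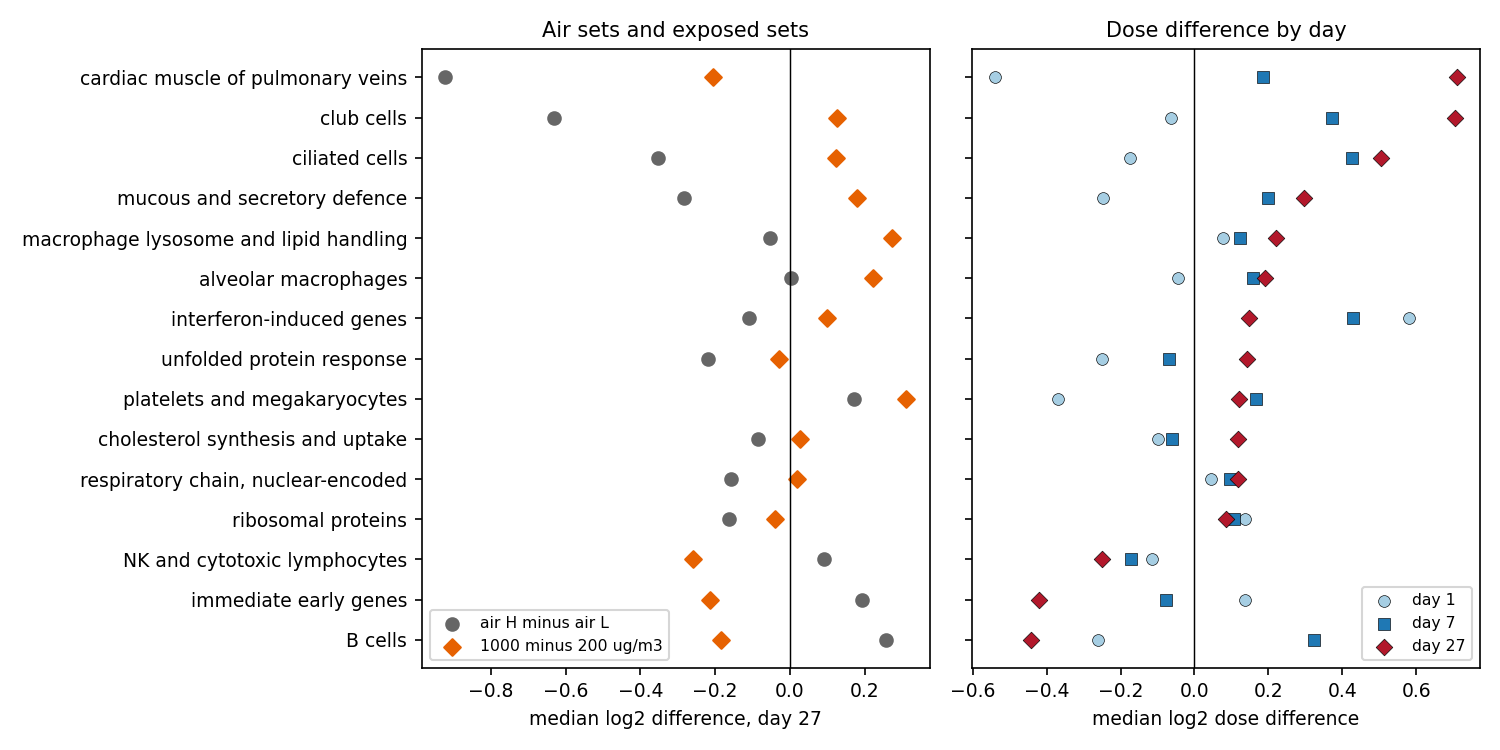
Left, median log2 difference of air H minus air L (circles) and of 1000 minus 200 ug/m3 (diamonds) at day 27 for the 15 lists. Right, median dose difference of the same lists at days 1, 7 and 27; ciliated genes go from -0.18 through 0.42 to 0.50, and B cell genes from -0.26 through 0.32 to -0.44.

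Genes known to respond to combustion products gave little. Cyp1a1, a cytochrome P450 induced through the aryl hydrocarbon receptor, had medians of 7.68 CPM after 1000 ug/m3, 3.83 in air H, 3.75 after 200 ug/m3 and 7.08 in air L. Its dose difference was 1.48 (SE 0.72, adjusted p = 0.377), and 1.27 without animals 024 and 045. The highest value, 38.6 CPM in animal 045, rested on 6 counts. The receptor's target list had a median of 0.01 over 6 tested genes. Of the antioxidant genes, Nqo1 had 0.02 (SE 0.17) and Hmox1 0.26 (SE 0.20), and the list under the transcription factor NRF2 had 12 of 17 positive with a median of 0.07.

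The 28 other lists with at least 4 tested members did not meet the rule. Heat shock chaperones came near it, with 10 of 13 positive (median 0.25), but their median effects were -0.03 and -0.24, both below 0. Proliferation genes were positive in 20 of 23 (median 0.21), again with both median effects below 0 (-0.07 and -0.23). Red blood cell genes were negative in 7 of 8 (median -0.37, effects -0.35 and -0.01). Endothelial genes had median effects of -0.06 and 0.05 and were negative in 13 of 18 (median -0.10), below the share required. Of the 18, 12 were lower after 1000 and higher after 200 ug/m3 (30.1% of all genes). An unadjusted p below 0.05 was found for 6 negative members (8.15% of all genes). Without animals 024 and 045, 14 of 18 were negative (-0.12). The growth factor receptor gene Kdr had -0.40 (SE 0.15). Matrix genes had effects of -0.15 and 0.05. Of 20, 13 were negative, with 4 negative and 1 positive at an unadjusted p below 0.05. Type II pneumocyte genes had a median of 0.04, with 7 of 12 positive.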

How the data were processed

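Raw read counts per gene, 1 table for the 72 samples, are what the authors deposited. Trimmomatic 0.35, bcl2fastq 2.19, HTSeq 0.6.1, HISAT2 2.1.0, SAMtools 1.8 and Rnor_6.0 appear, with no role, in the submitters' processing notes. The strand setting and the annotation release were not given in the sources used here.

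From these counts, genes were filtered by edgeR's filterByExpr (14761 of 30042 kept), scaled by TMM and tested with edgeR 4.0.16 (R 4.3.3), a robust quasi-likelihood F-test with 1 mean per group over the 24 day 27 libraries. Benjamini-Hochberg adjustment ran over all genes tested, at 0.05. SE is the log2 difference divided by the square root of F. DESeq2 1.42.0, limma 3.58.1 and sva 3.50.0 gave alternatives. The code was tested on simulated data.

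The 44 gene lists held 614 names, of which 590 were found (9 by synonym) and 523 tested. Members and lists were chosen with earlier results of these data known. Named genes were the 10 with the smallest p in each direction among genes of opposite sign, up to 4 per list that ran in opposite directions, and Cyp1a1, Nqo1 and Hmox1; others were named to show the range of a list. A few genes that the rule names are not reported here. The smallest ratio of chi-square to its degrees of freedom among 60 within-group pairs of libraries was 1.36, so none was taken as a duplicate. That pair was animals 045 and 046. Low depth by itself brings this ratio down, so the check says little for pairs with animal 024 or 045. The labels give 1 animal per sample. Promoters matched 368 of the 523 members.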

Additional observations from a re-analysis of the deposited data

Results flagged for a closer look

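In 31 of 376 groups of 6 values, 1 library stood far from the others by Dixon's test; chance flags about 1 in 20 groups. Of these, 18 came from animal 045, the shallowest library, where 1 count is 6.44 CPM. In that animal M6pr, Cacna1a, Agr2, Bpifb1, Fcrla, Eomes, Klrb1c and Itga2b were at 0 counts, and Slc2a1, Ebf1 and Hmox1 were at 6.44 CPM. It was also the lowest of its group for Mgat4b and Retnla (12.9 CPM each), Dnajb9 (19.3), Dnah5 (25.8), Dnajb11 (45.1) and Ctsb (451), and for the relative level of ribosomal protein genes (0.789).

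In the 200 ug/m3 group, animal 089 was lowest for Mal2 (231 CPM), Nqo1 (24.2), Pf4 (7.2) and Cyp1a1 (1.39). Animal 093 of that group was lowest for Retnla (1.83 CPM) and highest for the ciliated list (1.26). In air L, animal 081 was highest for Agr2 (15.4 CPM) and the club cell list (3.29), and animal 087 for the unfolded protein response list (1.23). In air H, Wasf2 was lowest in animal 018 (127 CPM) and Scgb3a2 in animal 017 (62.2), while Pvrl1 was highest in animal 042 (52.9) and the ribosomal list in animal 018 (1.62).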

How the results depend on the processing

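For genes past the threshold in the dose difference, DESeq2 gave 34, a fit of all 72 libraries 22, DESeq2 without animals 024 and 045 (chosen after seeing the data) 31, and leaving out 1 animal 0 to 14. At an unadjusted p below 0.05, pooling the air groups gave 854 and leaving out 1 animal 1451 to 2263. For the effect of 1000 ug/m3 the counts were 6 with DESeq2, 2 with non-robust dispersions, 4 with DESeq2 without animals 024 and 045, and 0 to 1 on leaving out 1 animal. For 200 ug/m3 they were 11, 19 with DESeq2 without those animals, and 0 to 1. Between the exposed groups they were 2 with DESeq2, 1 without animals 024 and 045, 1 with 1 surrogate variable, 21 with DESeq2 without those animals, and 0 to 1. The share of opposite signs was 58.4% with voom quality weights, 59.4% without animals 024 and 045 with either tool, and 57.9% to 61.3% on leaving out 1 animal. The change from day 1 to day 27 had 8 calls with voom quality weights. With pooled air the list medians were 0.12 (ciliated), 0.13 (club) and -0.03 (unfolded protein response). Pooled air also reversed Zfp503 (0.082), Mark2 (0.0079), Aldh1a1 (-0.020), Myl7 (-0.51), Myl4 (-0.37), Ryr2 (-0.21), Ebf1 (0.039), Pf4 (0.027), Manf (-0.095), Dnajb9 (-0.0097), Pdia4 (-0.044), Srebf2 (0.0080), Rpl10 (-0.039), Rps16 (1.27), Rpl5 (-0.15), Nqo1 (-0.014) and Hmox1 (-0.035). Nqo1 was -0.0090 with voom quality weights. On leaving out 1 animal Ryr2 ranged from -0.14 to 0.89, Clec1b from -0.0098 to 0.30 and Nqo1 from -0.066 to 0.12; the cause was not tested. Of 570 list medians under alternatives, 566 kept their sign; the others were the cardiac muscle list without 1000 ug/m3 animal 046 (-0.14) and, with pooled air, that list (-0.21), the ribosomal list (-0.039) and the unfolded protein response list. Leaving out 1 animal moved 10 of the 15 list medians by over 1.5 times. Of the other values, 292 counts and shares stayed within 1.5 times or their counting interval, 2934 gene values kept direction and side, and 40 passed the threshold under an alternative. Leaving out day 7 animal 037 was also chosen after seeing the data. Pooled air was not run for opposite signs, since both effects would share controls. No paired analysis was possible because animal numbers differ between the groups. Depth limits animals 024 and 045 most.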

Other observations

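Some of the 34 DESeq2 calls not described above are named here after their values were seen. Zyx, a focal adhesion protein, had a DESeq2 dose difference of -0.84 (SE 0.19, adjusted p = 0.0222). The Wnt and norrin receptor gene Fzd4 had -0.73 (SE 0.18), Ssh1, a phosphatase of the actin regulator cofilin, -0.70 (SE 0.18), and Vamp2, a vesicle fusion protein, -0.94 (SE 0.24). Pdgfrb, a growth factor receptor of pericytes, had -0.36 (SE 0.10) and the receptor gene Kit -0.33 (SE 0.09). These 6 were also called without animals 024 and 045, whereas Svep1 (-0.57), Arhgap31 (-0.45) and Crtc2 (-0.68) were not.

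The dose difference varied with the length of the gene. Over 13090 genes with a RefSeq span (88.7% of those tested), the median was 0.05 in the 1309 shortest genes (median span 2793 bases) and -0.07 in the 1309 longest (217375 bases). The median effects in the longest genes were -0.03 after 1000 and 0.05 after 200 ug/m3, and air H minus air L was 0.06.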
